A study of Mus musculus with 16 samples.

Results

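The 8 genes described here, Hmgcs1, Sqle, Idi1, Fdft1, Lss, Cyp51, Insig1 and Srebf2, belong to the cholesterol synthesis pathway and its control, and were taken by name from the gene column of the array files. That column holds 27745 different names in all, some of which are sequence identifiers. The 8 were represented by 20 of the 41174 non-control probes, and 11 of these 20 were bright enough to be kept among the 19398 probes tested. RNA came from the gastrocnemius, a mixed-fibre calf muscle, of male C57BL/6N mice that were 3 months old when they went onto a high-fat diet (cHF, 35% lipid by weight) for 8 weeks. Both groups received rosiglitazone, an insulin-sensitising drug that activates PPARγ, as 10 mg in each kg of diet (cHF+ROSI, 8 mice). In cHF+F+ROSI (8 mice) an n-3 long-chain polyunsaturated fatty acid concentrate replaced 15% of the dietary lipids as well, so that this concentrate was the only planned difference. All mice were fasted for 10 h in the light phase and re-fed a low-fat Chow diet in the night before they were killed, so none of the values is from an animal eating its test diet. Each array gave the log2 ratio of 1 mouse (Cy5) over a common reference pool (Cy3), which also held RNA of mice on a higher rosiglitazone dose. A level below is this log2 ratio, and a fold change (FC) is the mean log2 ratio of cHF+F+ROSI minus that of cHF+ROSI. No mouse was on cHF alone in this comparison, hence no effect of rosiglitazone can be read from it.

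Cholesterol is built from acetyl-CoA through mevalonate, isoprenoids and squalene. When sterol in the endoplasmic reticulum is low, the escort protein SCAP carries the transcription factor SREBP-2, encoded by Srebf2, to the Golgi, where proteases release its active part; when sterol is high, INSIG proteins hold SCAP back. The released factor raises transcription of the synthesis enzymes and of Insig1 and Srebf2 themselves. Skeletal muscle makes some sterol of its own, and mevalonate in muscle also supplies ubiquinone, dolichol and the lipid anchors of small GTPases. Because the sterol-regulated genes share promoter elements, the 250 bases before the start site are shown for Hmgcs1, Idi1, Insig1 and Srebf2. Hmgcs1 has a sterol element match in this window. Insig1 was the only gene past an unadjusted p of 0.05, and Idi1 and Srebf2 co-varied across mice. The windows are from RefSeq (GRCm38.p6), all on the plus strand. They lie at chr13:119690101-119690350 (Hmgcs1), chr13:8885356-8885605 (Idi1), chr5:28071162-28071411 (Insig1) and chr15:82147019-82147268 (Srebf2). Capitals mark matches on either strand to the sterol regulatory element TCACNCCAC and to the NF-Y motif CCAAT, which reads ATTGG when it lies on the other strand.
Hmgcs1: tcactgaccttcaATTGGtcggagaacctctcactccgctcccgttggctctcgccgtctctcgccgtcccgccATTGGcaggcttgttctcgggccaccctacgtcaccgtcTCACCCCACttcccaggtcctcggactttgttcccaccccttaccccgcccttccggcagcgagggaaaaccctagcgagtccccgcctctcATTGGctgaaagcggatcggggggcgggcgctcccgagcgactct
Idi1: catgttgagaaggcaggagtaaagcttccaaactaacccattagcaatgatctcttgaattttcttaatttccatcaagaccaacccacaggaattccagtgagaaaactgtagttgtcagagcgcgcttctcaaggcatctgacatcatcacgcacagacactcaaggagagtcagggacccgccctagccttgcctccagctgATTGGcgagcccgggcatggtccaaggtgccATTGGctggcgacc
Insig1: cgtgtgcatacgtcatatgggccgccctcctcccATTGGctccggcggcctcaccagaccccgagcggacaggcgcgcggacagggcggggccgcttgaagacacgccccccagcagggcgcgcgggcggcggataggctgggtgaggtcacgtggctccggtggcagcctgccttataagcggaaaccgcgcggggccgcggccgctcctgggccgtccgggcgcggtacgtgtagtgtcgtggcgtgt
Srebf2: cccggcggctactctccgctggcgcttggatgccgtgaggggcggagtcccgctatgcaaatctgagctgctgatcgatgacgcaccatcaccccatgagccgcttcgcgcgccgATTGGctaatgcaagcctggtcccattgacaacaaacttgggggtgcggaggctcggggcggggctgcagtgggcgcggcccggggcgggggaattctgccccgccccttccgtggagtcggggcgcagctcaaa
The TCACNCCAC letters were present in Hmgcs1 only among the 6 member windows examined (those of Lss and Cyp51 are not printed), 137 bases before the start. They occurred in 1.05% of the 32851 promoter windows of this length. CCAAT was present in each of the 6 windows and in 33.8% of all windows. A match of letters is a description and not a measured binding site. Sqle and Fdft1 were not analysed here in this respect.

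None of the 8 genes passed an adjusted p of 0.05 in the limma comparison of the diets (Benjamini-Hochberg over all kept probes), against 0.0155% of all kept probes (3 of 19398). At an unadjusted p of up to 0.05, 1 of 8 was lower (Insig1) and 0 were higher, beside 3.96% of all probes lower and 3.5% higher. The sign of the difference was negative for 7 of the 8 genes and positive for Lss, while 50.8% of all probes had a negative sign. Under other normalizations or array weights Fdft1 took a positive sign in 5 settings, Hmgcs1 in 1, and Lss a negative sign in 2. The median FC was -0.08 over the 8 genes and -0.0014 over all kept probes. The ranges of the groups overlapped for all 8 genes, as the plot of levels by mouse shows. The share of all kept probes with overlapping groups is not given here, so the overlap does not set these genes apart. Among the 95% intervals of these genes, the limit farthest from 0 was -0.42 on the log2 scale, a 1.34-fold difference, and belonged to Sqle. This limit holds for these normalized values only, since other settings gave larger estimates, down to -0.48 for Sqle from the signals as processed by the scanner software, and -0.41 for Hmgcs1 and -0.34 for Srebf2 after scaling between arrays. Whole muscle was measured, and fewer cells of a type cannot be told apart from less RNA per cell.

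**Figure D1:**
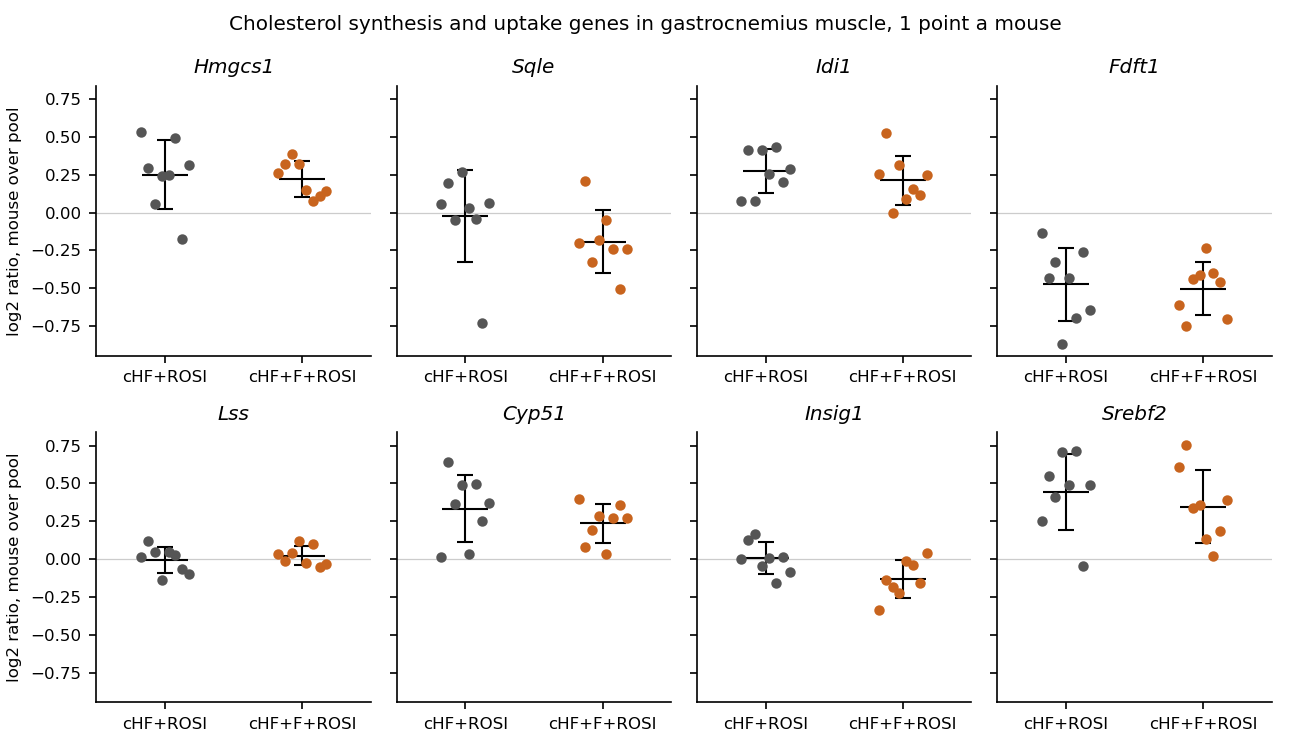
Log2 ratio over the reference pool (vertical axis) of the 8 genes in each mouse, cHF+ROSI in grey and cHF+F+ROSI in orange, with the mean and SD of the 8 mice in black. The groups overlapped in every panel, and the low cHF+ROSI point of Sqle is replicate 7 at -0.73.

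Srebf2, which encodes the SREBP-2 precursor, ranged from 0.02 to 0.76 in cHF+F+ROSI (median 0.35) and from -0.05 to 0.71 in cHF+ROSI (median 0.49). Both ranges were nearly the same. The group means were 0.35 ± 0.24 and 0.45 ± 0.25 (SD, n = 8 each), and the FC was -0.10 (SE 0.11, adjusted p = 0.889 by limma). This is the brightest of 3 kept Srebf2 probes (A_52_P473344), which in the array files lies at chr15:82032520-82032579 (mm8). The other kept probes gave FCs of -0.08 (A_52_P665742, unadjusted p = 0.214) and -0.10 (A_51_P377508, unadjusted p = 0.0838). Only A_51_P377508 was matched to a RefSeq transcript of Srebf2, whereas A_52_P473344 and A_52_P665742 had no match. Which transcript the brightest probe measures is therefore not settled. Although the FCs were alike, the 3 probes did not rise and fall together from mouse to mouse. After the group means were taken off, A_52_P473344 had a Pearson's r of -0.06 with A_52_P665742 and of -0.17 with A_51_P377508, while the latter pair had an r of 0.45 (16 mice). What is said below of Srebf2 across mice therefore depends on the probe.

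Insig1 encodes the endoplasmic reticulum protein that holds back SCAP when sterol is abundant. Its level ran from -0.34 to 0.04 in cHF+F+ROSI (median -0.15) and from -0.16 to 0.17 in cHF+ROSI (median 0.0047). In cHF+F+ROSI 7 of 8 mice were below the cHF+ROSI mean and 4 were below the lowest cHF+ROSI mouse. Mean levels were -0.13 ± 0.12 and 0.0043 ± 0.11 (SD, n = 8 each). The FC was -0.14 (SE 0.06, unadjusted p = 0.0335, exact permutation p = 0.0345, two-sided), and with an adjusted p of 0.63 it failed the correction. Within each of the 4 slides the difference had a negative sign, from -0.22 to -0.03. The unadjusted p exceeded 0.05 in 6 of the 16 fits that left out 1 array on the same normalized values, and was 0.0759 at most, without cHF+F+ROSI replicate 1. The size also depended on the normalization, with an FC of -0.42 from the signals as processed by the scanner software (adjusted p = 0.346), of -0.36 in the deposited normalized table (adjusted p = 0.3) and of -0.19 after median centring (unadjusted p = 0.104). A second Insig1 probe (A_52_P393392), too dim to be kept, gave 0.01 (SE 0.06) in the fit without the filter, so that the difference was seen with A_51_P290207 alone (chr5:28408493-28408552, mm8), whose reference signal was 2.56 times background.

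Hmgcs1, the cytosolic HMG-CoA synthase that feeds the pathway, ranged from 0.08 to 0.39 in cHF+F+ROSI (median 0.21) and from -0.17 to 0.53 in cHF+ROSI (median 0.27). The spread was wider in cHF+ROSI, with an SD of 0.23 against 0.12, and the FC was -0.03 (SE 0.09, adjusted p = 0.971). Idi1, which isomerises isopentenyl diphosphate, lay between -0.01 and 0.53 in cHF+F+ROSI (median 0.20) and between 0.08 and 0.44 in cHF+ROSI (median 0.27), with an FC of -0.06 (SE 0.08, adjusted p = 0.902). Both Idi1 probes are placed on chromosome 2 by the array files, whereas RefSeq has the gene on chromosome 13, and their accession had no match in the RefSeq table used, so that the identity of this transcript is uncertain. The Hmgcs1 probes are placed on the unplaced part of chromosome 13.

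Fdft1 encodes squalene synthase, the first enzyme committed to sterol. It ranged from -0.75 to -0.23 in cHF+F+ROSI (median -0.45) and from -0.87 to -0.14 in cHF+ROSI (median -0.43), and the FC was -0.03 (SE 0.10, adjusted p = 0.977). Sqle, the squalene epoxidase and a rate-limiting step of the later pathway, lay between -0.50 and 0.21 in cHF+F+ROSI (median -0.22) and between -0.73 and 0.27 in cHF+ROSI (median 0.04). In cHF+F+ROSI 7 of 8 mice were below the cHF+ROSI mean. The FC of Sqle was the largest of the 8 in size, -0.17 (SE 0.12, adjusted p = 0.796, exact permutation p = 0.221). It was also the smallest in size among the settings with all mice, with -0.30 without background correction (unadjusted p = 0.0494), -0.28 with array weights (unadjusted p = 0.015), -0.37 from Cy5 alone (unadjusted p = 0.0155), -0.42 in the deposited normalized table (unadjusted p = 0.0292) and -0.48 from the processed signals, and the smallest adjusted p among these settings was 0.411. A single mouse bears on it: cHF+ROSI replicate 7 had -0.73 while the next lowest of its group had -0.05. Without this mouse the FC was -0.27 (SE 0.08, unadjusted p = 0.006, adjusted p = 0.396). Of the 16 limma fits that left out 1 array, this was the only 1 with an unadjusted p of up to 0.05 for Sqle. The highest was 0.325.

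Lss (lanosterol synthase) varied least, from -0.05 to 0.12 in cHF+F+ROSI (median 0.01) and from -0.14 to 0.12 in cHF+ROSI (median 0.02). Its FC was 0.03 (SE 0.04, adjusted p = 0.929), and its second kept probe gave 0.11 (SE 0.07, adjusted p = 0.729). Cyp51, the lanosterol demethylase, ranged from 0.03 to 0.40 in cHF+F+ROSI (median 0.27) and from 0.02 to 0.64 in cHF+ROSI (median 0.37). The FC of Cyp51 was -0.10 (SE 0.09, adjusted p = 0.843), and -0.21 both in the deposited normalized table (unadjusted p = 0.00665, adjusted p = 0.382) and from the processed signals (unadjusted p = 0.0487). Its 2 dim probes gave -0.08 and -0.07 in the fit without the filter. The level of Cyp51 had an r of 0.67 with the array's median Cy5 signal over background (permutation p = 0.0123). This did not pass (adjusted p = 0.224 over 72 relations), and r was 0.50 without the 2 mice farthest in Cyp51. The part of array brightness in the result was not tested. Over all 9 member probes that were not kept, FCs in the fit without the filter ran from -0.08 to 0.09.

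**Figure D2:**
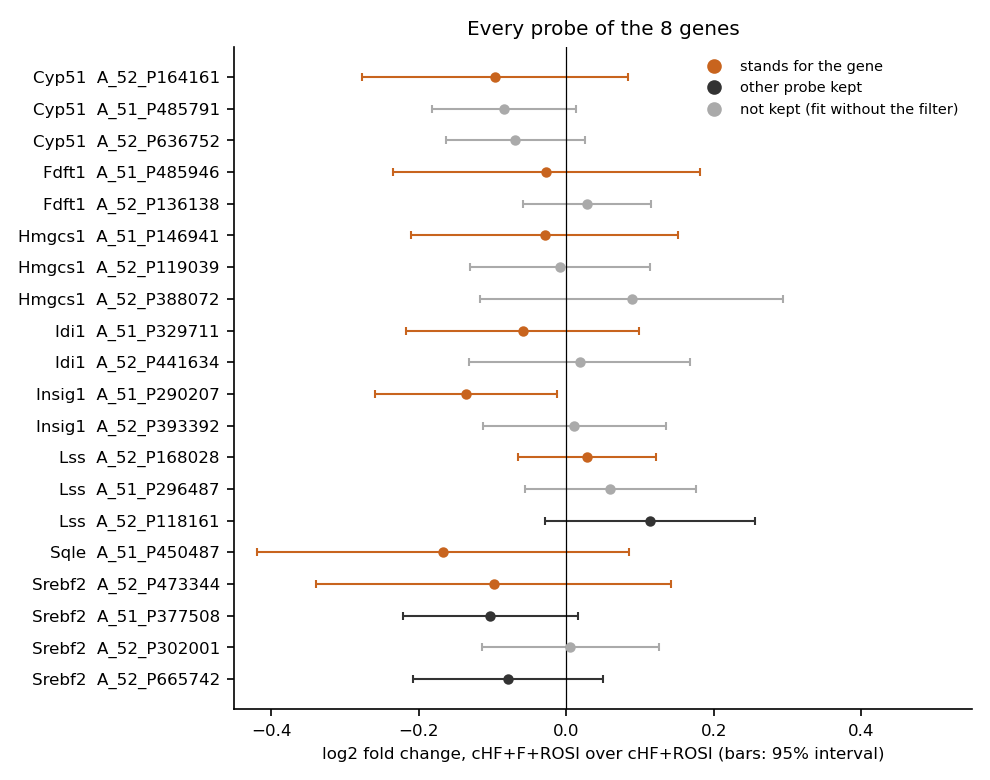
FC on the log2 scale (horizontal axis, cHF+F+ROSI over cHF+ROSI) of each of the 20 probes of the 8 genes, with 95% intervals from limma; orange marks the probe that stands for the gene, black other kept probes and grey probes not kept. The interval lies wholly below 0 for A_51_P290207 of Insig1 and crosses 0 for the other 19.

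Srebf1 and Insig2, relatives of Srebf2 and Insig1, are given whatever their values. Insig2 had an FC of 0.06 (SE 0.05, adjusted p = 0.841). Srebf1, which encodes SREBP-1, the factor of fatty acid synthesis, ranged from -0.57 to 0.22 in cHF+F+ROSI (median -0.43) and from -0.30 to 0.33 in cHF+ROSI (median 0.17). Mean levels were -0.34 ± 0.27 and 0.08 ± 0.27 (SD, n = 8 each). The FC was -0.43 (SE 0.12, unadjusted p = 0.00303, adjusted p = 0.372), and the unadjusted p stayed at or below 0.00738 in all 16 fits that left out 1 array. The array has 1 kept probe for Srebf1, which does not separate SREBP-1a from SREBP-1c.

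Other genes of sterol and isoprenoid metabolism, together with fatty acid synthesis (14 kept genes), were described in 6 lists. Of their 66 kept genes, 10 had an unadjusted p of up to 0.05 (15.2%, beside 7.46% of all probes), 5 lower and 5 higher, and none passed the adjusted p. Of the 15 other synthesis enzymes tested 2 were among them, Lbr (a sterol reductase of the nuclear envelope) with -0.12 (unadjusted p = 0.0239) and Msmo1, named Sc4mol in the array files (methylsterol oxidase), with -0.18 (unadjusted p = 0.0289). The median FC of these 15 was -0.04. Among 11 genes of SREBP processing and turnover only Srebf1 was called at this level, with a median of -0.01.

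In the list of uptake and trafficking 3 of the 10 genes tested were called. Npc1 (0.23, unadjusted p = 0.0441) and Npc2 (0.11, unadjusted p = 0.0365), which carry endocytosed cholesterol out of the lysosome, and the oxysterol-binding protein Osbp (0.17, unadjusted p = 0.0163) were higher in cHF+F+ROSI. The smallest adjusted p of the list was 0.566. The median of the 10 was -0.07, with 6 negative and 4 positive signs.

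Of 9 kept genes of efflux, esterification and oxysterols, 1 was called, the oxysterol receptor Nr1h2 (LXRβ) with -0.14 (unadjusted p = 0.029), and the median was -0.009. None of 7 genes of the isoprenoid side branches was called (median 0.02); the largest in size were Pdss1 (ubiquinone chain synthesis, 0.13) and Fnta (protein farnesylation, 0.08). In the fatty acid synthesis list, which Srebf1 is known to control, 3 of 14 were called and they differed in sign: Scd1, the stearoyl-CoA desaturase, had -0.81 (SE 0.32, unadjusted p = 0.0205), Thrsp 0.26 (unadjusted p = 0.027) and Acaca, the acetyl-CoA carboxylase, 0.15 (unadjusted p = 0.0182). The median of the 14 was 0.03, with 2 negative and 12 positive signs.

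**Figure D3:**
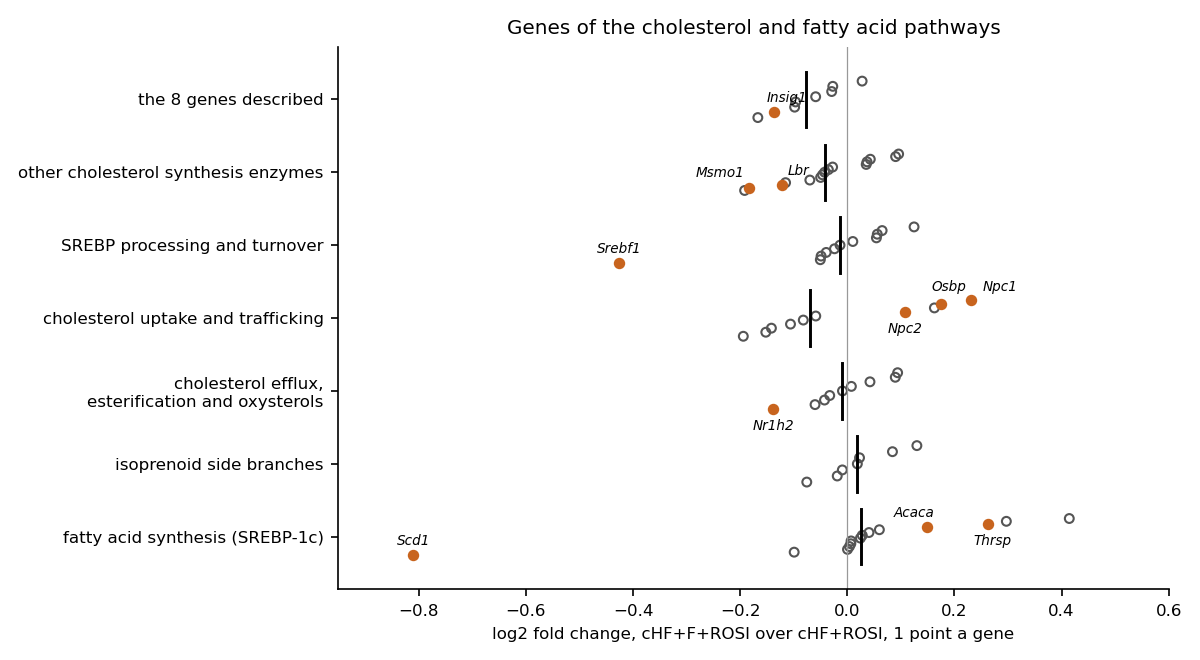
FC on the log2 scale (horizontal axis) of every kept gene of the 8 genes and the 6 lists, 1 point a gene, with the list's median as a black bar; filled orange points have an unadjusted p of up to 0.05. The medians lie between -0.08 and 0.03, and Scd1 (-0.81) and Srebf1 (-0.43) stand farthest from 0.

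Markers of other cells in the muscle were taken beside these values. Of 7 kept endothelial markers 3 were lower at an unadjusted p of up to 0.05 (Cdh5, Kdr and Esam, list median -0.15). This is 42.9% of the list, beside 3.96% of all probes that were lower at this p. No marker of adipocytes (median 0.25, 8 kept), Schwann cells (-0.09, 9), macrophages (0.01, 8), red blood cells (0.19, 3), muscle fibres in general (-0.06, 8) or slow fibres (-0.40, 8) was called. Mean levels of the slow fibre markers ran from -2.09 to 0.29 in cHF+F+ROSI and from -1.22 to 0.68 in cHF+ROSI, and those of the adipocyte markers from -1.24 to 0.92 and from -0.82 to 0.35. The part of such differences between samples in the results above was not tested.

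The 8 genes were then compared across the 16 mice, after taking off the group means, to ask whether they rose and fell together. By the probes that stand for them, they did not move as a block. The mean of the 28 pairwise correlations was 0.05, with 16 pairs above 0 and 12 below. As with Srebf2, the kept probes of Lss hardly followed each other (r = 0.11), so these values depend on the probe. At an adjusted p of 0.05 (100000 permutations of mice within groups, two-sided, Benjamini-Hochberg over 28 pairs) 4 pairs were called, 2 positive and 2 negative. Fdft1 fell as Srebf2 rose (r = -0.79, rho = -0.84, permutation p = 0.0005, adjusted p = 0.014), and it also ran against Idi1 (r = -0.73, rho = -0.73, permutation p = 0.00162, adjusted p = 0.0227). Idi1 rose with Srebf2 (r = 0.71, rho = 0.80, permutation p = 0.00334, adjusted p = 0.0312), and so did Sqle (r = 0.70, rho = 0.55, permutation p = 0.00628, adjusted p = 0.044, but 0.148 for rho). Hmgcs1 had an r of 0.59 with Sqle and of 0.57 with Srebf2, which did not pass (adjusted p = 0.195 and 0.143). Lss was near 0 with Srebf2 (-0.02), and no pair that holds Lss, Cyp51 or Insig1 was called.

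**Figure D4:**
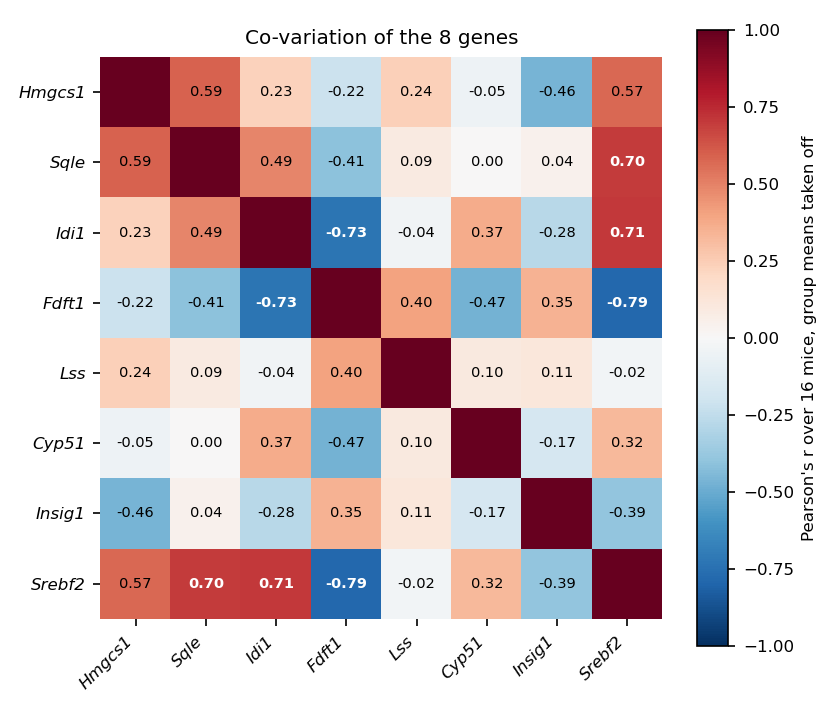
Pearson's r of each pair of the 8 genes over 16 mice after the group means were taken off, on a scale from -1 (blue) to 1 (red); bold white values passed an adjusted p of 0.05. Fdft1 is negative with Srebf2 (-0.79) and Idi1 (-0.73), and Srebf2 is positive with Idi1 (0.71) and Sqle (0.70).

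Both negative relations had the same sign in each group, with r of -0.80 and -0.80 for Fdft1 with Srebf2 and of -0.70 and -0.80 for Idi1 with Fdft1 in cHF+F+ROSI and cHF+ROSI. Without the 2 mice farthest from the median of the first gene they were -0.79 and -0.75. The relation of Sqle with Srebf2 dropped to 0.33 without the 2 mice farthest in Sqle, and to 0.50 (adjusted p = 0.354) without cHF+ROSI replicate 7, so that it rests on few mice. Leaving out cHF+F+ROSI replicate 2 brought the number of called pairs to 0 (the smallest adjusted p was then 0.0594, for Fdft1 with Srebf2, r = -0.76). With each array centred on its median in place of loess the r of Fdft1 was -0.36 with Srebf2 and -0.28 with Idi1, and neither passed. Of the 19310 probes measured on all arrays, 1.17% had as low an r with Srebf2 as Fdft1 and 0.632% as low an r with Fdft1 as Srebf2. The shares with as low an r for Idi1 and Fdft1 were 1.38% from the side of Idi1 and 1.49% from that of Fdft1. For Idi1 and Srebf2 the shares with as high an r were 1.42% from the side of Srebf2 and 0.86% from that of Idi1. They were 1.63% from the side of Srebf2 and 0.435% from that of Sqle for Sqle and Srebf2.

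Taken singly, 1 of the 3 kept Srebf2 probes gave these 3 relations. With A_52_P665742 in place of the brightest probe, the r with Fdft1 was -0.17, with Idi1 0.50 and with Sqle 0.17. With A_51_P377508 they were 0.42, -0.12 and 0.24, and none of these 6 values passed (smallest adjusted p = 0.363). With the mean of the 3 probes, which includes the brightest, Sqle (r = 0.75, adjusted p = 0.0109) and Idi1 (r = 0.76, adjusted p = 0.0151) passed with Srebf2 and Fdft1 did not (r = -0.58, adjusted p = 0.215). Idi1 with Fdft1 does not involve Srebf2 and stayed the only called pair in both cases. Without the filter, the dim second Idi1 probe also had an r of -0.65 with the bright Fdft1 probe, whereas the dim second Fdft1 probe had 0.19 with the bright Idi1 probe and -0.09 with the bright Fdft1 probe.

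**Figure D5:**
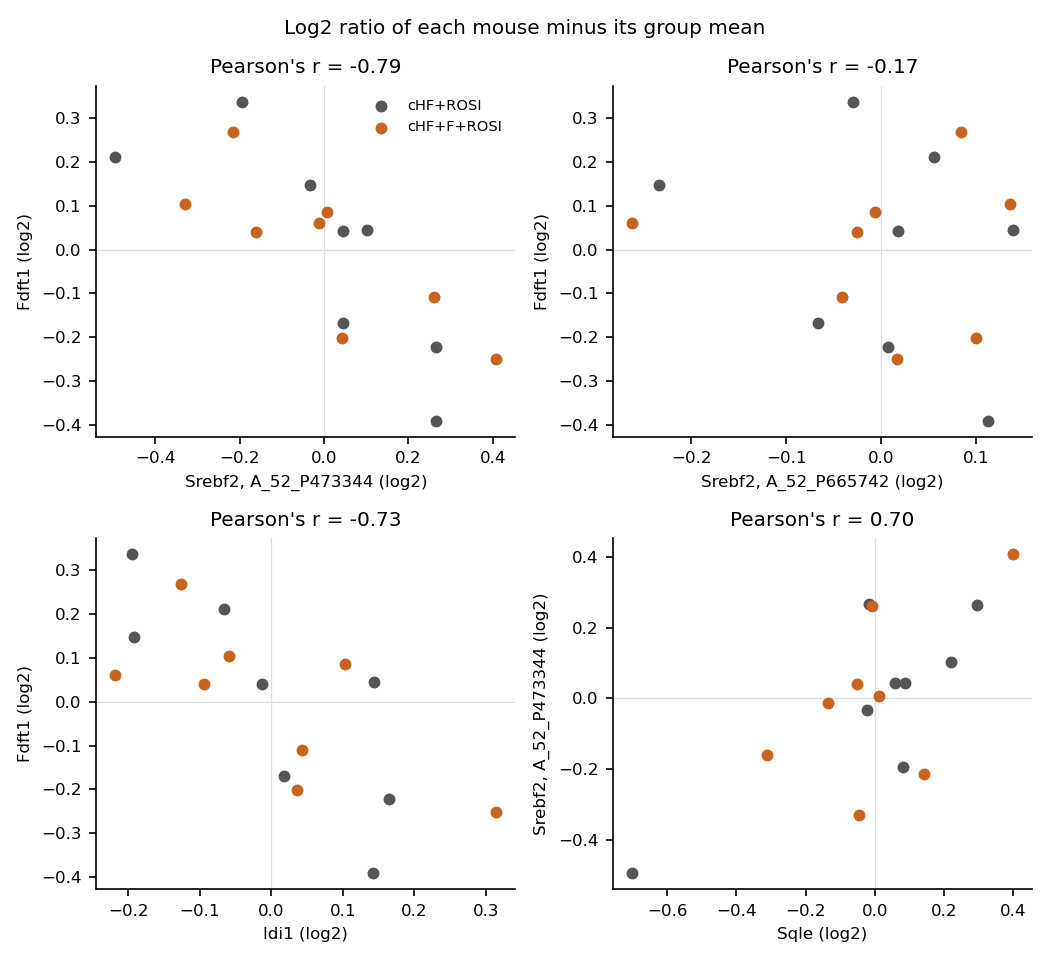
Log2 ratio of each mouse minus its group mean for 4 pairs, 1 point a mouse, cHF+ROSI in grey and cHF+F+ROSI in orange. Fdft1 ran against Srebf2 by the brightest probe (r = -0.79) but not by A_52_P665742 (r = -0.17), ran against Idi1 (r = -0.73), and the relation of Sqle with Srebf2 (r = 0.70) includes the low cHF+ROSI replicate 7 at the lower left.

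Of 16 relations between the 8 genes and Srebf1 and Insig2 none passed an adjusted p of 0.05. The closest were Sqle with Srebf1 (r = 0.65, rho = 0.59, permutation p = 0.00592, adjusted p = 0.0947), which was 0.38 without the 2 mice farthest in Sqle, and Srebf2 with Srebf1 (r = 0.62, rho = 0.60, permutation p = 0.0133, adjusted p = 0.107), which was 0.32 without the 2 mice farthest in Srebf2. The high and low ends were the same mice as before: cHF+ROSI replicate 7 had the lowest Sqle of all 16, and cHF+F+ROSI replicate 2 had the highest of its group in Sqle (0.21), Srebf1 (0.22), Idi1 (0.53) and Srebf2 (0.76).

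The mean of the 8 genes lay between -0.05 and 0.12 in cHF+F+ROSI and between -0.10 and 0.24 in cHF+ROSI. Of 10622 genes ranked by 1 probe each, those most like this mean over the 16 mice were Egr1, Foxo6, Rtkn, Crocc, Scd2, Plk3, Mtus1, Dhcr7, Gnaq and Zyx, with r from 0.85 to 0.77. Dhcr7, which makes the last step of cholesterol synthesis (r = 0.79), and the desaturase Scd2 (r = 0.82) are the members of the pathway lists among them. The lists hold 66 kept genes. These r are the highest of 10622 and were not tested. The most opposed were Tpgs1, Gpatch1, Rbm7, Vmac and Ggact, with r from -0.88 to -0.84. Of the 72 relations between the 8 genes and marker lists or array brightness none passed an adjusted p of 0.05. The nearest were Insig1 with the muscle fibre markers (r = 0.73, permutation p = 0.00074, adjusted p = 0.0533) and Idi1 with the slow fibre markers (r = -0.74, permutation p = 0.003, adjusted p = 0.108).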

How the data were processed

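Gastrocnemius RNA of 16 mice was hybridised to Agilent mouse arrays, Cy5 for the mouse and Cy3 for the reference pool, with no dye swap. The authors deposited each array's scanner intensities, written by Feature Extraction (10.5.1.1 in the file headers, 10.5.5.1 in the submitters' processing notes), and a normalized log2 table, used here as an alternative only. Its 24377 probes are those above 2 times background on the mean of both channels, its differences between arrays equal log2 of the Cy5 over Cy3 median signals (r of at least 0.9999), and its centring stays unknown. Each of the 4 slides held 4 arrays, with each diet always at the same positions, so position cannot be told apart from diet. The cHF+ROSI RNA was also labelled a further time for a comparison not used here.

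Median spot signals were background-corrected with the median background (normexp, offset 50). Probes whose signal was on average over the arrays at least 2 times background in both channels were kept. Outlier-flagged spots were removed, and arrays were loess-normalized. Spots of a probe were averaged, and the brightest kept probe stood for a gene. The diets were compared with limma 3.58.1 (R 4.3.3), and p-values were adjusted by the Benjamini-Hochberg procedure across the 19398 kept probes. An exact permutation test was added for single genes. The scripts were tested on simulated data. Genes named beyond the 8 are Srebf1 and Insig2, list genes with an unadjusted p of up to 0.05 (or the 2 largest of a list with none), and the genes most like the mean of the 8 across mice. The members, lists and this rule were chosen with earlier results of these data known. Some genes of the pathway are not reported here and were left out of the lists. Median Cy5 signal over background was 2.33 to 3.64 and that of Cy3 1.78 to 2.02, and the number of arrays limits the precision. Probe positions are those of the files (mm8). Nothing says that replicate numbers pair the mice: deviations of same-numbered arrays correlated from -0.34 to 0.73, and 1 of 8 cHF+F+ROSI arrays correlated best with its own number. Alternatives comprised background correction, normalization, channel, source, filter, slide, replicate number, array weights, probe choice and leaving out each array.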

Additional observations from a re-analysis of the deposited data

Results flagged for a closer look

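In 2 of the 20 groups of 8 values examined (the 8 genes, Srebf1 and Insig2 in each diet), 1 mouse lay far from the rest by Dixon's criterion, which chance alone meets in about 1 group of 20. In cHF+ROSI, replicate 7 had -0.73 for Sqle with the next mouse at -0.05, a gap of 0.68 of the range. The same mouse was also the lowest of its group in Hmgcs1 (-0.17) and Srebf2 (-0.05). Insig2 in cHF+ROSI replicate 1 was 0.23 with the next at 0.45, a gap of 0.609 of the range.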

How the results depend on the processing

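No gene of the 8 passed an adjusted p of 0.05 in any setting tried, and Sqle, Idi1, Cyp51, Insig1 and Srebf2 kept a negative sign by the probes that stand for them, values within single slides aside, while the dim second probes of Insig1 and Idi1 gave 0.01 and 0.02. In the limma fits, 14 probes were called in the diet comparison without background correction and 14 with array weights, 19 from the processed signals, 8 from Cy5 alone, 10 from the authors' table and 1 after median centring, against 3 in the report. The count was 0 after scaling between arrays (956 at an unadjusted p under 0.05) and 0 with the replicate number as a block (1428), where the methods' t-test called 2 without the block. With the replicate block Insig1 had an unadjusted p of 0.0644, and after median centring 0.104. The number of the 8 genes lower at an unadjusted p of up to 0.05 was 2 without background correction, with processed signals, with Cy5 alone and with array weights, 3 in the authors' table and 0 after median centring. The share of all probes at this p is not given for these settings, nor for the fits below that left out 1 array. These counts therefore cannot be read as more than background. The difference of Fdft1 turned positive with processed signals (0.0065), scaling (0.14), Cy5 alone (0.070), the authors' table (0.052) and array weights (0.032). That of Lss turned negative with scaling (-0.0074) and Cy5 alone (-0.0029), and that of Hmgcs1 positive in the authors' table (0.034). List genes past the unadjusted p numbered 5 after median centring and 6 after scaling, where the isoprenoid median was 0.12.

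Of the co-variation, 1 pair passed without background correction, after median centring, with Cy5 alone and with either other Srebf2 probe. With processed signals 6 pairs passed, and 4 did so in the authors' table and after scaling. In each of these last settings pairs passed that were not among the 4 called in the report, so the set of called pairs changed as well. Sqle with Srebf2 failed with r of 0.63 without background correction, 0.59 after median centring, 0.68 after scaling, 0.57 with Cy5 alone, 0.47 in the authors' table, 0.52 without the 2 mice farthest in the mean of the 8, and 0.17 and 0.24 with the other Srebf2 probes. Idi1 with Fdft1 failed at -0.64 without background correction, -0.28 after median centring, -0.49 with Cy5 alone, -0.61 in the table and -0.65 with no filter. Idi1 with Srebf2 failed at 0.67 without background correction, 0.55 with Cy5 alone and 0.50 with A_52_P665742, and was -0.12 with A_51_P377508. Fdft1 with Srebf2 failed at -0.36 after median centring, -0.58 with the mean of the kept probes (under which Sqle and Idi1 still passed with Srebf2) and -0.17 with A_52_P665742, was 0.42 with A_51_P377508 and -0.86 with slide as a term. The mean r was -0.041 within cHF+F+ROSI and -0.061 without the 2 farthest mice. The causes were not tested.

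Leaving out each array in turn gave 3 to 5 called probes, 0 to 2 of the 8 genes lower (0 without cHF+ROSI replicate 2 or 3 or cHF+F+ROSI replicate 1, 3, 4 or 7, and 2 without cHF+ROSI replicate 7), and differences of -0.090 to 0.011 for Hmgcs1, -0.27 to -0.12 for Sqle, -0.10 to -0.03 for Idi1, -0.083 to 0.021 for Fdft1, 0.01 to 0.05 for Lss, -0.14 to -0.05 for Cyp51, -0.16 to -0.11 for Insig1 and -0.17 to -0.05 for Srebf2. Called pairs numbered from 0 (without cHF+F+ROSI replicate 2) to 5 (without cHF+ROSI replicate 1), with 2 without cHF+ROSI replicate 4 or cHF+F+ROSI replicate 7. The mean r ran from -0.02 to 0.06, Sqle with Srebf2 from 0.50 to 0.77, Idi1 with Fdft1 from -0.78 to -0.68, Idi1 with Srebf2 from 0.60 to 0.78, and Fdft1 with Srebf2 from -0.81 to -0.76. Alternatives chosen after seeing the data were the other Srebf2 probes, the probes not kept and the leave-outs for Srebf1 and Insig2.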

Other observations

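The genes nearest to single members across the 16 mice, after the group means were taken off, are given as values; these were chosen after their values were seen. Zyx (r = 0.97), Zfp710 (0.94), Rtkn (0.93), Unc45a (0.93) and Flna (0.92) were most like the brightest Srebf2 probe. Zyx and Flna encode proteins that bind the actin cytoskeleton. Rab9 (-0.95) and Polr2c (-0.93) were most opposed to it. Fdft1 was nearest to the mitochondrial malic enzyme Me3 (0.95) and to Rabggtb, a subunit of the enzyme that puts geranylgeranyl groups on Rab proteins (0.94). Sqle was near to Gclc, the catalytic subunit of the enzyme that starts glutathione synthesis (0.84). Opposed to Insig1 stood Fli1 (-0.80), a transcription factor of endothelial and blood cells.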
